A study of Homo sapiens with 6 samples.

Results

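Expression of 9 genes listed as lipoprotein and scavenger receptors for oxidized low-density lipoprotein (OX-LDL) was compared in HK-2 cells. This is an immortalized human line derived from the proximal tubule of the kidney. The genes are VLDLR, LRP1, LRP8, SCARB1, SCARB2, CD36, OLR1, MSR1 and CXCL16. All are called receptors here, although SCARB2 is a protein of the lysosomal membrane. Each was taken as the row of the deposited table that carries its gene name, giving 9 of 58825 genes. The RNA-seq libraries came from 3 samples of untreated cells (Control) and 3 of cells kept for 48 h in 25 μg/ml of the oxidized particles (OX-LDL). In the study's methods, cells were starved of serum before treatment, and the labels do not say whether the Control cells went through the same steps. HK-2 is a single cell line. The study's methods speak in general of independent in vitro experiments, but the labels do not tie the libraries to them, so the p-values measure the spread between these samples, part of which may be technical.

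Cells take up native lipoproteins mainly through the low-density lipoprotein receptor family, endocytic receptors that deliver their cargo to the lysosome and are recycled. Oxidized particles lose affinity for those receptors and are instead bound by scavenger receptors, a mixed group that is best known from macrophages and endothelial cells and is not switched off when the cell fills with cholesterol. In the proximal tubule the large family member LRP2 (megalin) retrieves filtered proteins and lipid carriers from the urine.

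Total counts per library lay between 62561347 and 76797607. A read pair was inferred to contribute about 4 deposited counts to a gene. Counts of exactly 4, 8 and 12 occurred 3.26, 2.95 and 2.13 times as often as the counts beside them. The counting tool is not given, so the inference was not checked. A gene with more than 12 counts in each of the 6 libraries was taken as detected. By that inference this is more than about 3 read pairs, and the limit covers counting error only. Of 6 epithelial markers, all were detected, but CDH1 (E-cadherin) only at low counts. It had 15, 66 and 73 counts in the Control libraries, against 61, 34 and 71 in those with OX-LDL. EPCAM had 51.2 ± 3.68 FPKM in Control, against 53.1 ± 3.13 with OX-LDL (SD, n = 3 per group; FPKM are fragments per kilobase and adjusted for depth). KRT19 (3.84-fold, edgeR adjusted p = 0.00207) and KRT8 (1.78-fold, edgeR adjusted p = 0.0116) rose, and the median log2 fold change of the 6 was 0.46. Of 10 proximal tubule markers, 6 were not detected in every library, and LRP2 had 0 counts in each library. The transcription factor PAX8 fell from 46.6 ± 12.9 to 19.4 ± 4.17 FPKM (edgeR adjusted p = 0.0182), and the 4 tubule markers tested had a median log2 fold change of -0.71. Of these 4, 3 had a negative fitted change, and that of GGT1 was positive (log2 fold change 1.02, edgeR adjusted p = 0.336). SLC5A2, among those 3, reached the mean of 0.1 FPKM needed for testing through its Control level (0.263 FPKM, against 0.0679 with OX-LDL). Its counts in Control replicates 1 to 3 were 50, 207 and 56. The values of GGT1 are uncertain (see the last paragraph), so the median and the count of signs give no direction for the tubule markers as a group. An adjusted p-value under 0.05 was reached by 33.3% of the epithelial and 25% of the tubule markers tested, against 15.3% of all genes. Some genes of both marker lists thus changed between the same groups as the receptors, and their part in the receptor results was not tested. Of 8 macrophage markers, 7 were not detected in every library. Their summed level was 0.236 to 0.399 FPKM in Control and 0.294 to 0.643 FPKM in OX-LDL, with AIF1, TYROBP and FCGR3A at 0 counts throughout and CSF1R at 4 to 12 counts in Control and 16 to 94 in OX-LDL. None of 6 endothelial markers was detected in every library (summed level 0.0379 to 0.122 FPKM in Control and 0.0230 to 0.0849 FPKM in OX-LDL).

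Of the 9 receptors, 8 were detected, and CD36 was not. The levels covered a wide range, from VLDLR with 27.0 ± 2.74 FPKM in Control down to OLR1 with 0.270 ± 0.130 FPKM (SD, n = 3). In Control the order was VLDLR, SCARB1, LRP1, SCARB2, LRP8, CXCL16, MSR1 and OLR1. The library values of LRP1 and SCARB2 overlapped, as did those of CXCL16 and MSR1, so these neighbours could not be ranked within their spread. In OX-LDL, SCARB2 moved above LRP1, and LRP1 and LRP8 were the neighbours whose values overlapped. The summed level of the 9 genes was 46.4 to 51.2 FPKM in Control and 61.5 to 63.4 FPKM in OX-LDL, and VLDLR made up 51.3% to 56.6% of it in Control and 48.6% to 49.0% in OX-LDL.

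**Figure D1:**
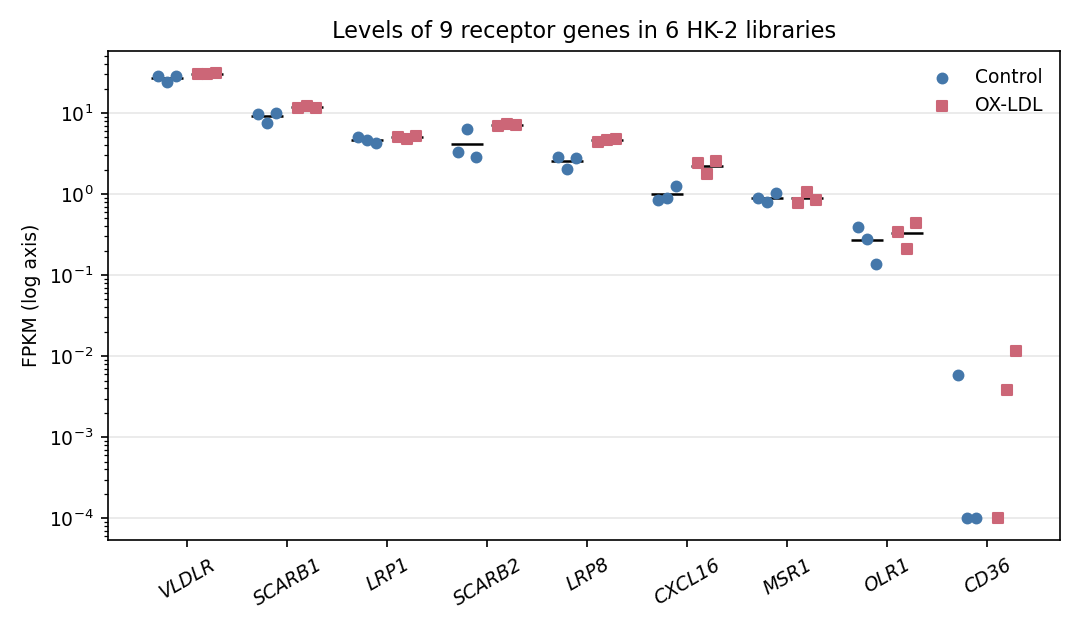
Level of each receptor gene in FPKM on a log axis, with 3 Control libraries (circles) and 3 OX-LDL libraries (squares) per gene; horizontal lines are group means, left out for CD36, whose values at the bottom include libraries listed at 0.0001 FPKM for a count of 0. VLDLR was the most abundant in both groups, and the squares of VLDLR, SCARB1, SCARB2, LRP8 and CXCL16 lie above all their circles.

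Genes were compared between the groups with edgeR's quasi-likelihood test over the 19510 genes whose mean reached 0.1 FPKM, and p-values were adjusted over all of them. The 8 detected receptors were in this test. LRP8 and CXCL16 passed an adjusted p of 0.05 and both rose, which is 2 of 8, while 15.3% of all genes tested passed, 7.91% upward and 7.42% downward. At an unadjusted p under 0.05 the receptors were 4, with SCARB1 and SCARB2 added, against 30.4% of all genes. DESeq2 also called these 4, and 22.7% of all genes. The fitted change was positive for each of the 8 receptors, with a median log2 fold change of 0.37, whereas 49.7% of all genes tested had a positive change and their median was -0.0043. The sign of MSR1 was negative in 4 of 14 alternatives and that of OLR1 in 1 of 14. In 5 receptors every OX-LDL library had a higher FPKM than every Control library, which was also the case in 16.8% of all genes tested (37.2% without overlap in either direction). RNA was taken from all cells of a sample, so a change of RNA per cell and a change in the share of cells that express a gene cannot be told apart.

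**Figure D2:**
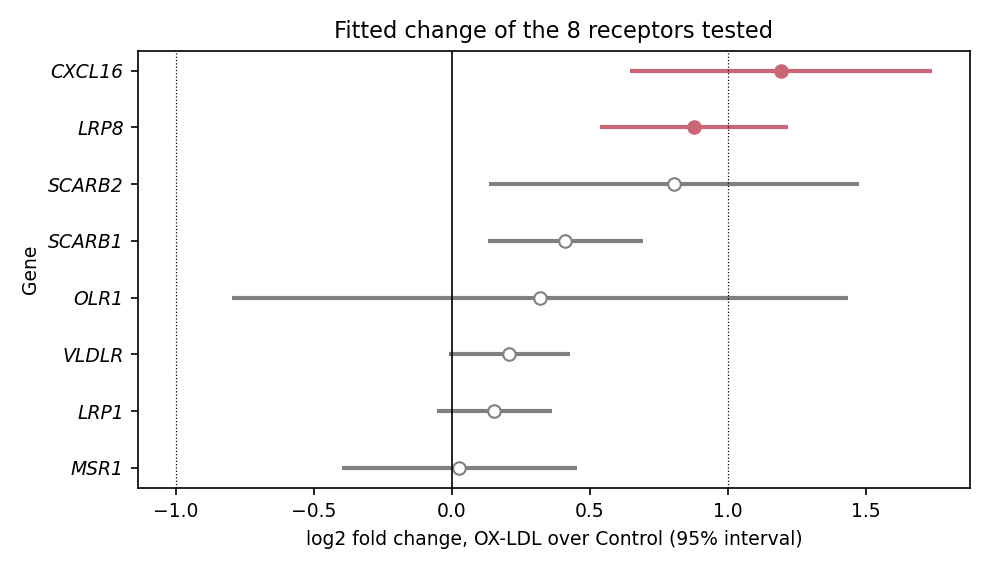
Fitted log2 fold change (OX-LDL over Control) of the 8 receptors tested, with 95% intervals from the quasi-likelihood fit; filled points had an adjusted p-value under 0.05 and dotted lines mark a fold change of 2 in either direction. LRP8 (0.88) and CXCL16 (1.19) are filled, and the interval of OLR1 is the widest, from -0.80 to 1.44.

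LRP8 and VLDLR are close relatives in the low-density lipoprotein receptor family. Both bind lipoproteins and the secreted protein reelin, and VLDLR is known for the uptake of triglyceride-rich particles. LRP8 (ENSG00000157193; GRCh38, chromosome 1, 53242364 to 53328070, minus strand) had 2.87, 2.05 and 2.77 FPKM in Control replicates 1 to 3 and 4.43, 4.62 and 4.80 FPKM in OX-LDL replicates 1 to 3. Every treated library lay above every untreated one, and the treated libraries lay close together. The log2 fold change was 0.88 (standard error, SE, 0.14), a 1.84-fold rise with a 95% interval of 1.45 to 2.33 and an edgeR adjusted p of 0.0113. LRP8 had an adjusted p-value under 0.05 in each of 15 alternative fits, which gave log2 fold changes between 0.66 and 0.98. LRP8 overlaps small non-coding genes, of which the most abundant, AL606760 on the other strand, had at most 50 counts in a library.

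VLDLR (ENSG00000147852; chromosome 9, 2621787 to 2660056, plus strand) had 28.2, 23.8 and 28.8 FPKM in Control and 29.9, 30.5 and 31.1 FPKM in OX-LDL. The groups did not overlap, but the highest Control library was close to the lowest treated one. The log2 fold change of 0.21 (SE 0.09) corresponds to 1.16-fold, with a 95% interval of 0.993 to 1.35, and the edgeR adjusted p of 0.183 missed the threshold. None of the 15 alternatives brought it under 0.05. VLDLR-AS1, a non-coding gene on the other strand that shares 7.90% of the exonic bases of VLDLR in GENCODE release 29, had 626, 714 and 523 counts in the Control libraries, against 292, 305 and 386 in those with OX-LDL. Its log2 fold change was negative, -0.86 (SE 0.17, edgeR adjusted p = 0.0182), so the antisense gene and VLDLR had fitted changes of opposite sign. The libraries were made with a protocol that marks the strand, and whether the counting used it is not given in the sources used here.

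Because VLDLR and LRP8 were measured in the same libraries, their ratio does not depend on library size. The level of LRP8 was 0.102, 0.0862 and 0.0960 of that of VLDLR in Control and 0.148, 0.152 and 0.154 in OX-LDL. These ratios did not overlap between the groups and differed by 0.68 on the log2 scale. A two-sided exact permutation test gave p = 0.1, the smallest value that 3 libraries against 3 allow. Of 3 pairs of receptors compared in this way, the other two were SCARB2 to SCARB1, with a log2 difference of 0.47 (exact permutation p = 0.4), and LRP1 to VLDLR, with -0.06 (exact permutation p = 0.7). After Benjamini-Hochberg adjustment over the 3 pairs, the exact permutation p of LRP8 to VLDLR was 0.3.

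The upstream regions of this pair are shown as a description only. LRP8 passed the threshold and VLDLR did not, which is not itself a test of a difference between them. Their ratio had an exact permutation p of 0.1. A link of the sequences to the change of either gene was not tested. Each sequence is the 250 bases before the RefSeq start (GRCh38.p14), which coincides with the gene start of the deposited table, written 5′ to 3′ on the strand of the gene, with matches to the GC box GGGCGG or its reverse complement in capitals. The LRP8 region is chr1:53328071-53328320 on the minus strand, and the VLDLR region is chr9:2621537-2621786 on the plus strand.
LRP8: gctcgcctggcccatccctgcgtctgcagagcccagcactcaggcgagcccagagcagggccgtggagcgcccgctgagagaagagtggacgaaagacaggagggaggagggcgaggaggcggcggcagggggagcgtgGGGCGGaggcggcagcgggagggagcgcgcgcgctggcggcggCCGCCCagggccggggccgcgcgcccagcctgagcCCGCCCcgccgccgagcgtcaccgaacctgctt
VLDLR: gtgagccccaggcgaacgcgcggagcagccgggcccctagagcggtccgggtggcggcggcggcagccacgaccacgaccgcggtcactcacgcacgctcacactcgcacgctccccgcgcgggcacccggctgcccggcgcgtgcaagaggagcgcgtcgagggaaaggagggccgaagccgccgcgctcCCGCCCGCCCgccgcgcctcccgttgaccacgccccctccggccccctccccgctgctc
Within the window of 300 bases that also includes the first 50 bases after the start, the GC content was 78.3% for LRP8 and 79.0% for VLDLR, against a median of 58.7% over 35116 RefSeq promoter windows. LRP8 held 41 CpG dinucleotides and VLDLR 49, against a median of 14. The GC box occurred 5 times in the LRP8 window and 2 times in that of VLDLR, and 45.0% of all windows held it. The motifs TCACNCCAC (a sterol regulatory element), TGATGNAA (a C/EBP-ATF element), TACGTG (a hypoxia element) and an NF-κB element given here by name were searched on both strands, and none was found in the windows of LRP8, VLDLR, LRP1 or SCARB2. They occurred in 1.13%, 3.62%, 3.24% and 1.91% of all windows. The RefSeq table held windows for 5 of the 9 receptors, these 4 and CD36.

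LRP1 is a large endocytic receptor of the same family that clears lipoprotein remnants and complexes of proteases with their inhibitors. LRP1 (ENSG00000123384; chromosome 12, 57128493 to 57213351) had 5.01, 4.58 and 4.21 FPKM in Control and 5.12, 4.79 and 5.13 FPKM in OX-LDL. The groups overlapped, since OX-LDL replicate 2 was below Control replicate 1. The fitted change was 1.11-fold, with a 95% interval of 0.964 to 1.29 and an edgeR adjusted p of 0.292. LRP1 overlaps STAT6 on the other strand, which had 143% of its counts but shares 0.283% of its exonic bases.

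SCARB1 and SCARB2 belong to the class B scavenger receptors, as does CD36. SCARB1 is the receptor for high-density lipoprotein, from which it takes up cholesteryl esters, and it also binds modified particles. SCARB1 (ENSG00000073060; chromosome 12, 124776856 to 124882668) had 9.73, 7.60 and 9.89 FPKM in Control and 11.7, 12.3 and 11.5 FPKM in OX-LDL. All treated libraries were higher than all untreated ones, with Control replicate 2 the lowest of the 6. The change was 1.33-fold (log2 fold change 0.41, SE 0.12, 95% interval of the fold change 1.09 to 1.62), and the edgeR adjusted p of 0.0619 missed the threshold. It was under 0.05 in DESeq2 (0.0184), with upper-quartile factors (0.0490) and with a minimum of 1 FPKM (0.0395), and lay between 0.0540 and 0.135 in the other 12 alternatives.

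SCARB2 is a protein of the lysosomal membrane that carries the enzyme β-glucocerebrosidase to the lysosome. SCARB2 (ENSG00000138760; chromosome 4, 76158737 to 76234536) had 3.25, 6.40 and 2.87 FPKM in Control and 6.87, 7.39 and 7.07 FPKM in OX-LDL. Control replicate 2 stood apart from both other Control libraries and lay just below the treated libraries, which were close together. The highest Control value was 2.23 times the lowest, a spread that 5.42% of the 12259 genes whose mean reached 1 FPKM equalled or exceeded. Over all 6 libraries the fitted log2 change was 0.80 (SE 0.28), which missed the threshold (edgeR adjusted p = 0.108). Without Control replicate 2 it was 1.24 and passed (edgeR adjusted p = 0.00605), and DESeq2 with all libraries gave an adjusted p of 0.0158. Leaving out any other library gave log2 fold changes of 0.60 to 0.83 and adjusted p-values of 0.189 to 0.243. The 2 genes that overlap SCARB2, both on the other strand, had at most 27 counts in a library. The cause of the high value was not tested.

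**Figure D3:**
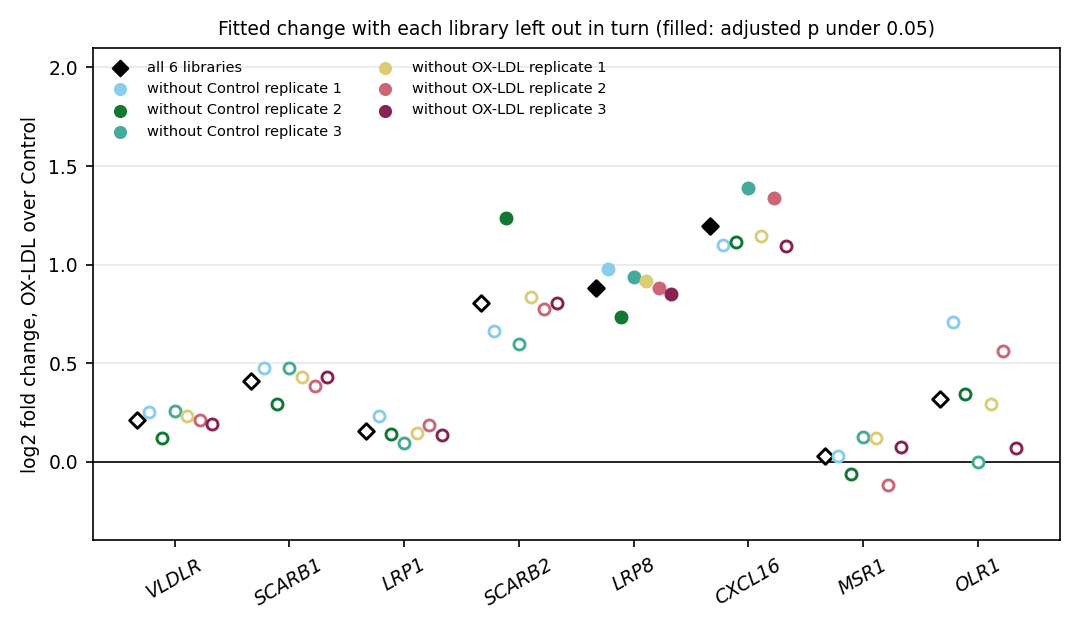
Fitted log2 fold change (OX-LDL over Control) of the 8 receptors with all 6 libraries (diamonds) and after leaving out 1 library at a time (circles); filled symbols had an adjusted p-value under 0.05. LRP8 is filled in all 7 fits, CXCL16 in 3 and SCARB2 only in the fit without Control replicate 2.

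CD36 takes up long-chain fatty acids and OX-LDL and is abundant in macrophages and fat cells. CD36 (ENSG00000135218; chromosome 7, 80369575 to 80679274) had 6, 0 and 0 counts in the Control libraries, against 0, 4 and 12 in those with OX-LDL. None of these was above the limit of 12 counts, so CD36 was not detectable at this depth in either group and no fold change is given.

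The remaining receptors that bind OX-LDL were expressed at low levels. OLR1 is the lectin-like OX-LDL receptor of endothelial cells. OLR1 (ENSG00000173391; chromosome 12, 10158301 to 10172138) had 108, 79 and 34 counts in the Control libraries, against 80, 60 and 123 in those with OX-LDL. The counts of the groups overlapped and the spread within each group was wide. The fold change of 1.25 had a 95% interval of 0.576 to 2.71 (edgeR adjusted p = 0.703), which is too wide to give a direction. TMEM52B overlaps OLR1 on the other strand with 51.7% of its counts but shares 0 exonic bases with it. MSR1 is the class A scavenger receptor of macrophages. MSR1 (ENSG00000038945; chromosome 8, 16107878 to 16567490) had 0.890, 0.793 and 1.02 FPKM in Control and 0.785, 1.07 and 0.838 FPKM in OX-LDL. The groups overlapped, and both the highest and the lowest of the 6 values were from treated cells. Its fold change was 1.02, with a 95% interval of 0.759 to 1.37 (edgeR adjusted p = 0.940). MSR1 was detected with 455 to 760 counts. Of the macrophage markers, CD14 had 26 to 51 counts, CSF1R up to 94 and ITGAM up to 33. PTPRC and LYZ had at most 8 counts, and AIF1, TYROBP and FCGR3A had 0. Which cells the MSR1 counts came from was not tested.

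CXCL16 is a chemokine anchored in the membrane that also serves as a scavenger receptor for OX-LDL and can be cut off by the proteases ADAM10 and ADAM17. CXCL16 (ENSG00000161921; chromosome 17, 4733533 to 4739928) had 210, 224 and 286 counts in the Control libraries, against 501, 450 and 642 in those with OX-LDL. In FPKM these were 0.848, 0.891 and 1.25 against 2.42, 1.76 and 2.53, so the groups did not overlap. The fold change of 2.29 had a 95% interval of 1.57 to 3.34 (log2 fold change 1.19, SE 0.23, edgeR adjusted p = 0.0185). CXCL16 was the only receptor of the 9 with a fold change above 2 and an unadjusted p-value under 0.05, limits that 6.36% of all genes tested passed in either direction. With 1 library left out the call was kept in 2 of 6 fits, and the adjusted p-value was 0.0601 without Control replicate 1, 0.0732 without Control replicate 2, 0.0668 without OX-LDL replicate 1 and 0.0713 without OX-LDL replicate 3. MED11 on the other strand had 147% of the counts of CXCL16 and shares 3.04% of its exonic bases. The fitted log2 fold change of MED11 was -0.36 (edgeR adjusted p = 0.313), opposite in sign to that of CXCL16. CXCR6, the receptor for the shed chemokine, had at most 18 counts in a library.

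Genes that work with the receptors were taken from 6 lists of 70 genes in all, of which 59 could be tested. Of these, 12 rose and 2 fell past the threshold, 23.7% of those tested against 15.3% of all genes. The median log2 fold change of the 59 genes was 0.23. Of the 14 calls, 8 were kept in every alternative that gave a value, namely SCARA3, PDZK1, CAVIN1, AP2M1, AP2B1, CTSL, THBS1 and RELN.

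Among 8 tested proteins that fold, anchor or degrade receptors, 3 rose and none fell past the threshold. That is 37.5%, against 15.3% of all genes tested. PDZK1, a scaffold that holds SCARB1 at the cell surface in liver, had 39.1, 36.5 and 42.2 FPKM in Control and 68.7, 68.6 and 67.0 FPKM in OX-LDL. All treated libraries were well above the untreated ones, a 1.77-fold rise (log2 fold change 0.83, SE 0.08, edgeR adjusted p = 0.00211). MYLIP, a ubiquitin ligase that marks VLDLR and LRP8 for degradation and is a target of the sterol-sensing LXR receptors, rose from 1.78 ± 0.341 FPKM in Control to 3.29 ± 0.503 (SD, n = 3 per group; edgeR adjusted p = 0.0263). DAB2, an adaptor that links receptors of the family to clathrin, rose from 2.35 ± 0.139 to 2.99 ± 0.116 FPKM (edgeR adjusted p = 0.0377). For MYLIP the adjusted p from edgeR rose to 0.0914 without Control replicate 2, 0.0631 without Control replicate 3, 0.0572 without OX-LDL replicate 1, 0.0529 without OX-LDL replicate 2 and 0.0688 without OX-LDL replicate 3. For DAB2 the value was 0.0834, 0.0870 and 0.0948 without Control replicates 1, 2 and 3, and 0.115 and 0.112 without OX-LDL replicates 1 and 3, and in all its call was lost in 9 of 15 alternatives.

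Among the ligands, partners and sheddases of the receptors, 2 of 8 tested genes rose and 1 fell past the threshold. That is 37.5%, against 15.3% of all genes tested. Reelin (RELN), the ligand that VLDLR and LRP8 share, fell. It had 11.9, 11.2 and 9.07 FPKM in Control and 5.22, 5.71 and 5.73 FPKM in OX-LDL, with no overlap and a fitted log2 change of -0.92 (SE 0.12, edgeR adjusted p = 0.00543). CLU, a secreted chaperone that both receptors can bind, rose from 3.79 ± 0.261 FPKM in Control to 5.48 ± 0.483 (SD, n = 3 per group; edgeR adjusted p = 0.0159). The adjusted p-value of CLU was 0.0601 without Control replicate 2, 0.0572 without OX-LDL replicate 1 and 0.0612 without OX-LDL replicate 3. THBS1, the matricellular ligand of CD36 and LRP1, was the third gene past the threshold, with a log2 fold change of 1.51.

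Of 8 tested members of the low-density lipoprotein receptor family outside the 9, none passed the threshold, against 15.3% of all genes tested. Among these 8, 7 had a positive fitted change. The one with the smallest p-value was the Wnt co-receptor LRP5, at 3.76 ± 0.118 FPKM in Control against 4.54 ± 0.548 with OX-LDL (SD, n = 3 per group; edgeR unadjusted p = 0.0338, adjusted 0.129). Of 10 tested scavenger and pattern receptors outside the 9, 1 rose and 1 fell past the threshold, 20% against 15.3% of all genes tested. SCARA3, a relative of the class A scavenger receptors, had 3.45, 2.58 and 3.01 FPKM in Control and 10.4, 7.56 and 10.1 FPKM in OX-LDL. This 3.16-fold rise (95% interval 2.39 to 4.18, edgeR adjusted p = 0.00278) was larger than the fitted change of each of the 8 receptors tested. CLEC7A is a receptor for fungal glucans, and its Control libraries held 444, 239 and 145 counts against 8, 55 and 16 after OX-LDL. It passed the filter on low values through its Control level, and with 8 counts in OX-LDL replicate 1 it was at or below the detection limit there. The fitted log2 change was -3.37 (SE 0.72, edgeR adjusted p = 0.0258), and its size was not stable, as it was -4.42 without OX-LDL replicate 2 and -2.29 in limma on log2(FPKM + 0.1). The adjusted p-value of CLEC7A was 0.0674 without Control replicate 1, 0.0670 without Control replicate 2, 0.0700 without OX-LDL replicate 1 and 0.0901 without OX-LDL replicate 3.

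The uptake machinery was tested with 13 genes, of which 3 rose past the threshold and none fell past it. That is 23.1%, against 15.3% of all genes tested. The fitted change was positive for 10 of the genes and negative for 3. AP2M1 and AP2B1 are subunits of the AP-2 complex, which collects receptors into clathrin-coated pits. AP2M1 rose from 104.9 ± 6.52 to 140.7 ± 3.82 FPKM and AP2B1 from 19.0 ± 2.26 to 32.5 ± 5.24 (SD, n = 3 per group). Both passed (edgeR adjusted p = 0.0103 and 0.0119). CAVIN1, which shapes caveolae, rose from 59.7 ± 2.85 to 96.9 ± 14.0 FPKM (edgeR adjusted p = 0.00941). Of 12 genes of lysosomal lipid handling, 3 rose past the threshold and none fell past it, 25% against 15.3% of all genes tested. The fitted change was positive for 7 and negative for 5, with a median log2 fold change of 0.074. The most negative was that of CTSD (log2 fold change -0.47, edgeR adjusted p = 0.0751). The protease CTSL rose 1.63-fold and the membrane protein LAMP2 1.32-fold, with edgeR adjusted p of 0.00657 and 0.0134. LIPA, the acid lipase that frees cholesterol from endocytosed particles, rose 1.25-fold (95% interval 1.09 to 1.42, edgeR adjusted p = 0.0398). The adjusted p-value of LIPA lay between 0.0567 and 0.106 with any 1 of the 6 libraries left out (call lost in 10 of 15 alternatives in all), and that of LAMP2 was 0.0539 without Control replicate 2 and 0.0543 when OX-LDL replicate 3 was left out.

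**Figure D4:**
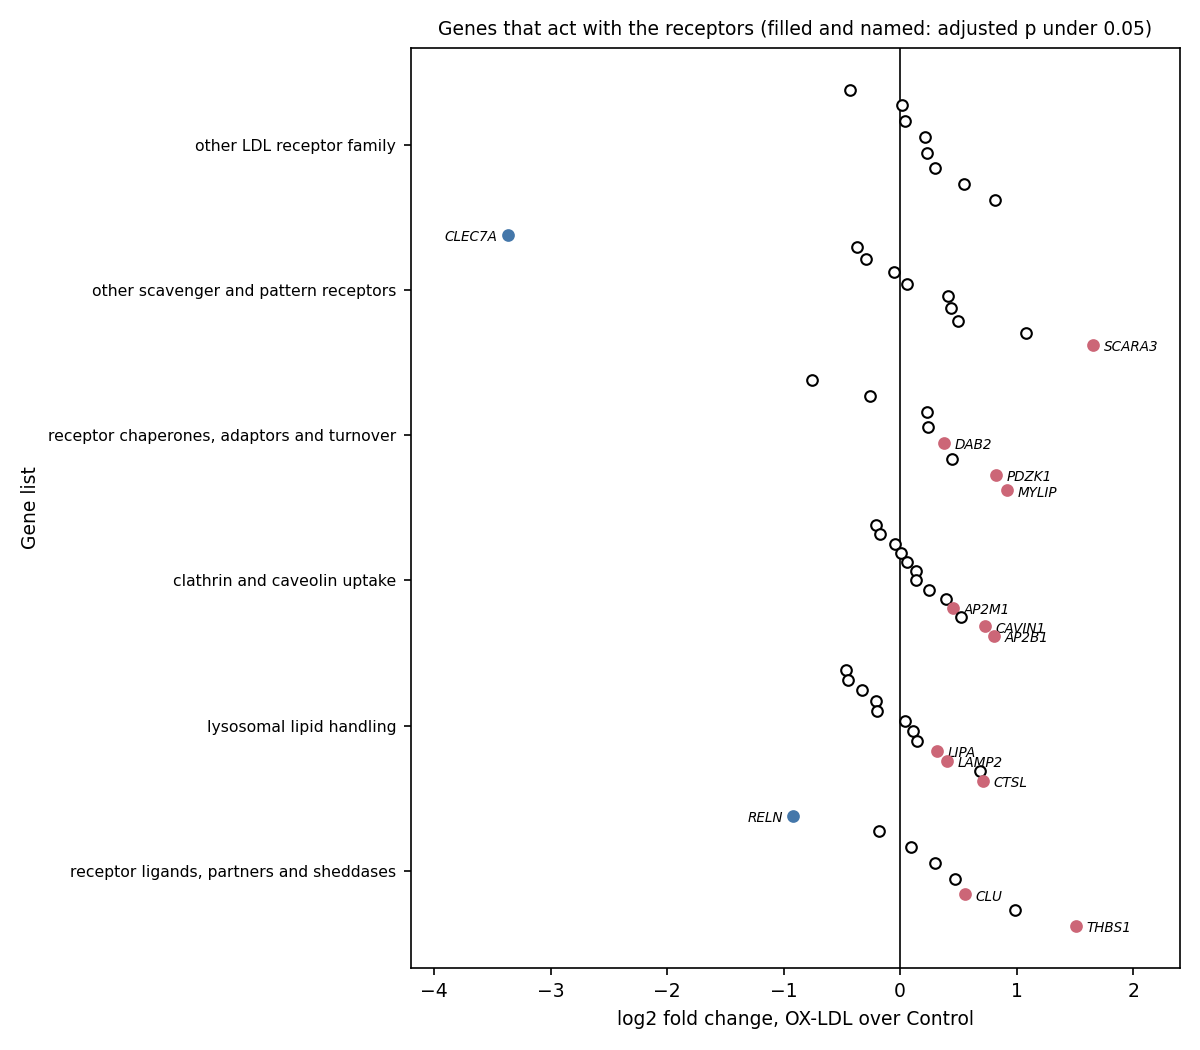
Fitted log2 fold change (OX-LDL over Control) of the 59 tested genes of the 6 lists that act with the receptors, 1 point per gene; filled and named points had an adjusted p-value under 0.05, red for a rise and blue for a fall. The 12 named points that rose lie between 0.32 and 1.66, and CLEC7A (-3.37) and RELN (-0.92) are the 2 that fell.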

How the data were processed

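Poly(A) RNA-seq data of HK-2 cells comprised 6 libraries, grouped by their labels into 3 Control and 3 OX-LDL libraries. The submitters' processing notes list cutadapt (version 1.9), HISAT2 (version 2.0.4), StringTie (version 1.3.4d), edgeR and DESeq2, with GRCh38 as the build and without their roles; the counting tool and annotation are not given in the sources used here. The authors deposited estimated counts, which are whole numbers not scaled for library size and were used without rounding. They also deposited FPKM values, which take account of transcript length and library size and list a count of 0 at 0.0001. Total counts per library were 62561347 to 76797607. No batch is named in the labels. GENCODE release 29 holds 58552 of the identifiers, 81.2% of them at the same coordinates. Of the 9 receptors, 5 had the same coordinates there. All shares of exonic bases were taken from that release, which may differ from the annotation used for counting. Between libraries of a group the chi-square per gene was 57.3 to 99.1, so none was deposited more than once.

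Genes whose mean reached 0.1 FPKM were tested with edgeR (version 4.0.16, R version 4.3.3; TMM factors, estimateDisp, glmQLFit, glmQLFTest, group as the only term) and adjusted by the Benjamini-Hochberg method. The standard error (SE) is the absolute log2 change over the root of F, and 95% intervals use the t quantile of the fit. The fits were also run on simulated counts as a check of the code, which does not show how they behave on these libraries. The receptors, the 6 further gene lists and the marker lists were chosen with earlier results of these data known. Of each further list, up to 4 genes with adjusted p-values under 0.05 and the smallest p-values are named, as are those with a fold change above 2 or below 0.5, or the gene with the smallest p-value where none passed; THBS1 is given by its fold change alone. Alternatives were DESeq2 (version 1.42.0), RLE and upper-quartile factors, a minimum of 1 FPKM or none, counts divided by 4, limma (version 3.58.1) on log2(FPKM + 0.1) and log2(FPKM + 1), a replicate block and each library left out in turn. The GC box was added after the sequences had been seen.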

Additional observations from a re-analysis of the deposited data

How the results depend on the processing

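Of 8 receptors detected above 12 counts, 8 were also above 0 counts in every library and 6 had a mean of at least 1 FPKM. The number of receptors with an adjusted p-value under 0.05 was 2 with edgeR on all libraries and 4 with DESeq2, where SCARB1 and SCARB2 were added; with 1 library left out it was 1 to 2. The 2991 genes with an adjusted p-value under 0.05 became 1161 to 2943 with 1 library left out (1796, 1161 and 1993 without Control replicates 1, 2 and 3, and 1262, 2943 and 1163 without OX-LDL replicates 1, 2 and 3). The 1240 genes past the study's limits (more than a 2-fold change either way at an unadjusted p of 0.05) became 572 with a minimum of 1 FPKM, 321 with limma on log2(FPKM + 1) and 1084 to 1387 with 1 library left out. The 14 further genes called became 8 to 14 with 1 library left out.

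Same-numbered Control and OX-LDL libraries did not deviate together over all genes (correlations of -0.041, -0.0031 and 0.036). The labels do not say whether the numbers pair the samples, and these correlations cannot exclude it. With a replicate block, 1636 genes were called in place of 2991 and 9 of the further genes in place of 14, and LRP8 and CXCL16 remained called. The 5 further genes that lost the call with the block were CLEC7A (edgeR adjusted p = 0.0575), MYLIP (0.0617), DAB2 (0.0946), LIPA (0.0777) and CLU (0.0507).

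The sign of the fitted change was not stable for MSR1 and OLR1. MSR1 had a log2 fold change of -0.0091 in limma on log2(FPKM + 0.1), -0.0037 in limma on log2(FPKM + 1), -0.064 without Control replicate 2, -0.12 when OX-LDL replicate 2 was left out, and up to 0.12 with another library left out. OLR1 ran from -0.0035 (Control replicate 3 left out) to 0.71 (Control replicate 1 left out). Over 342 combinations of a named gene and an alternative, 292 kept direction and side of the threshold, 40 lost the call, 5 gained it and 5 reversed. The cause was not tested. At 34 to 123 counts, the depth of OLR1 leaves an interval that includes a fold change of 2, and CD36 is at or below the detection limit of 12 counts.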

Other observations

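Genes of the lists used here other than SCARB2 also had Control replicate 2 apart from the other Control libraries, and they are named after their values were seen. LRP11, a member of the low-density lipoprotein receptor family, had 11.1, 2.85 and 10.3 FPKM in Control and 14.0, 13.4 and 14.3 FPKM with OX-LDL, so Control replicate 2 was the lowest of the 6 libraries. GGT1, a proximal tubule enzyme, had 3.13, 18.2 and 3.88 FPKM in Control and 15.8, 17.7 and 16.1 FPKM with OX-LDL, so that library was the highest. GGT1 is listed under a second identifier and has near-identical copies in the genome, so its values are uncertain. SLC5A2, another of the proximal tubule markers, was also highest in Control replicate 2, at a low level. It had 0.123, 0.516 and 0.149 FPKM in Control and 0.0678, 0.0579 and 0.0779 FPKM with OX-LDL. The cause was not tested.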
